A study of Mus musculus with 15 samples.

Results

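The genes described here build the membrane skeleton of neurons and its assembly at the axon initial segment. They are the 8 genes Ank1, Ank2, Ank3, Sptan1, Sptbn1, Sptbn4, Nfasc and Nrcam, found by matching each symbol to the Ensembl mouse gene IDs of the count files, out of 38561 genes in all. All 8 were counted and all 8 passed the filter on low counts that left 14293 genes for testing.

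Spectrins are long rod-shaped proteins that join as alpha and beta subunits into tetramers, cross-link short actin filaments and line the inner face of the plasma membrane. Ankyrins are adaptors that bind beta spectrin on one side and channels, transporters or adhesion molecules on the other. At the axon initial segment, where action potentials start, ankyrin-G and beta-IV spectrin hold voltage-gated sodium channels and the L1-family adhesion molecules neurofascin and NrCAM in place, and in Purkinje cells (PCs) the initial segment is also where basket cell axons form the pinceau synapse.

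The study measured RNA of PCs cut by laser from the cerebellum of male C57/BL6 mice (written C56/BL6 in the labels) from birth (P0) over P4, P8 and P14 to P21, the number giving the postnatal day. There were 3 biological replicates per time point, 15 samples in all, and no treatment or altered allele. Single somata were cut from P4 on, whereas clusters of PCs were cut at P0, so that capture and age cannot be told apart at P0. The comparison asks which of these genes change as PCs mature.

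Each sample held 3409371 to 7814951 counts on genes (median 5345170). PC markers were present at each time point: the summed level of 6 PC markers rose from 5340 ± 737 CPM (counts scaled to TMM library sizes; mean ± SD, n = 3) at P0 to 42941 ± 5287 at P21, and all 6 rose with age. Markers of other cells were present. The sum of 8 Bergmann glia and astrocyte markers was 4671 ± 854 CPM at P0, 9303 ± 860 at P8 and 4266 ± 758 at P21, and the sum of 5 oligodendrocyte markers was 22.4 ± 11.8 at P0 and 569 ± 241 at P21. At P0 the glial sum was thus near the PC sum. The sum of 4 granule neuron markers was 279 ± 61.4 CPM at P0, 675 ± 362 at P14 and 395 ± 135 at P21, and 2 of the 4 rose. In such bulk samples, fewer cells of a type and less RNA per cell cannot be told apart.

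Promoter sequence is shown for the spectrin subunits Sptan1 and Sptbn1, the alpha and beta chains of the general tetramer, because their RNA moved in opposite directions with age. The windows hold the 250 bases before a RefSeq transcript start on GRCm38.p6, read on the gene's strand, 5′ to 3′, with the GC box (GGGCGG or its reverse complement CCGCCC) in capitals. The Sptan1 window lies outside annotated genes, while both Sptbn1 windows lie in Sptbn1 introns, upstream of internal starts.
Sptan1, chr2:29965310-29965559, plus strand: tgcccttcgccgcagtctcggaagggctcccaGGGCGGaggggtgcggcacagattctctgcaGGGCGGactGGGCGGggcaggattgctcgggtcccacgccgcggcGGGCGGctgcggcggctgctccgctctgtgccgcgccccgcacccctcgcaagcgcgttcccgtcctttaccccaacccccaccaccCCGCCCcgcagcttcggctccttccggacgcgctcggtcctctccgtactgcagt
Sptbn1, chr11:30198258-30198507, minus strand: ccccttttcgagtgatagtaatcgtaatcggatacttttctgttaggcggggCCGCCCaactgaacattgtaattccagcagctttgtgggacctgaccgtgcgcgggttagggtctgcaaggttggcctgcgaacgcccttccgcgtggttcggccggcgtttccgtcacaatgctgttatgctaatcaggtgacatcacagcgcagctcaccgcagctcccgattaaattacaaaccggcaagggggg
Sptbn1, chr11:30219773-30220022, minus strand: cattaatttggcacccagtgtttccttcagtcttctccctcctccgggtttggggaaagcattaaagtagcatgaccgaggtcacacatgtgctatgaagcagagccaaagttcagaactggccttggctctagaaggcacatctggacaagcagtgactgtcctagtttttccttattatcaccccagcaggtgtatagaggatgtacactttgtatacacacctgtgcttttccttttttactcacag
The Sptan1 window held 5 GC boxes and 31 CpG dinucleotides at a GC content of 73.6%. The first Sptbn1 window held 1 GC box and 20 CpG, and the second held no GC box and 2 CpG. Over all 32817 windows of this length, 32.7% held a GC box, 16.7% held 2 or more, and the median window had 6 CpG and a GC content of 52.4%. Other promoter motifs were searched on both strands. The motif TATAAA was in none of the 3 windows and in 12.4% of all windows. The motif CCAAT was in none of the 3 and in 33.8% of all. The E-box core CACGTG was likewise in none of the 3, beside 6.02% of all. With these other motifs absent, overlap of a GC box with them could not occur. These are matches of letters only. RefSeq starts were found for 6 of the 8 genes, in 14 windows, and for Ank1 and Ank3 none is shown.

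Across P0 to P21, 4 of the 8 genes rose with postnatal day (Ank1, Ank2, Sptan1 and Nfasc), 1 fell (Sptbn1) and 3 passed no test of trend (Ank3, Sptbn4 and Nrcam). Of all genes tested, 12.1% rose and 14.1% fell by the same rule, an adjusted p under 0.05 in edgeR's quasi-likelihood test on postnatal day. Together 5 of the 8 were called, against 26.2% of all genes. The same 5 genes passed the test with time point as a factor, against 19.3% of all genes. All P21 samples lay above all P0 samples for the 4 rising genes (19.4% of all genes) and below them for Sptbn1 (18.2%), 5 of 8 in either direction against 37.6%. The median slope of the 8 genes was 0.055 log2 units per day, beside -0.0077 for all genes tested. Scaling to total counts in place of TMM moved the median slope of all genes to -0.025 and the share of rising among called genes from 46.1% (1729 rising, 2021 falling) to 30.0% (1230 rising, 2874 falling), and under it the 4 rising genes still rose. The share of reads that HTSeq assigned to no feature, which includes reads only partly inside a feature, also differed with age. It was 24.1 to 29.8% per sample at P0, 20.1 to 21.2% at P4 and 21.5 to 23.4% at P8. At P14 it was 16.7 to 19.0% and at P21 17.2 to 19.1%. Its part in the trends was not tested.

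**Figure D1:**
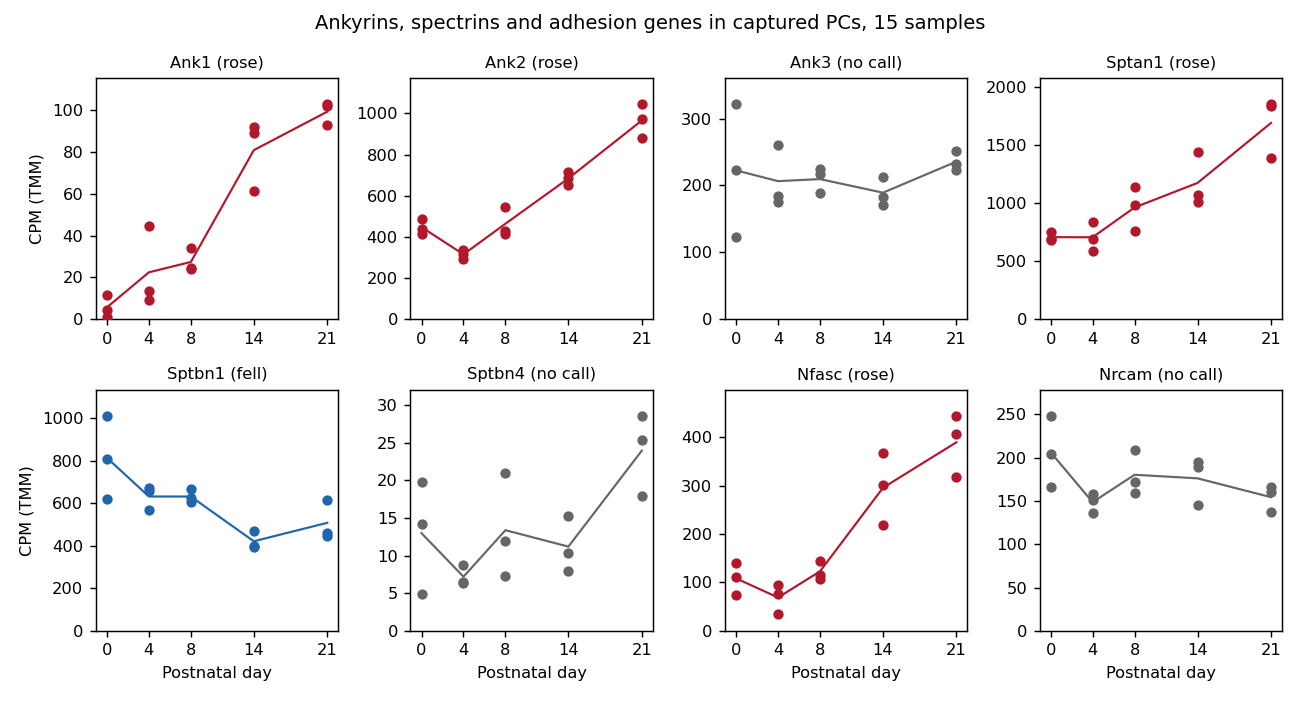
CPM (counts on TMM library sizes, linear axis from 0) of the 8 genes against postnatal day. Points are the 3 samples per time point, lines join the means, and colour marks genes that rose (red), fell (blue) or passed no trend test (grey). Ank1 climbs from 1.01 to 11.3 CPM at P0 to 92.8 to 103 CPM at P21, and Sptbn1 is highest at P0.

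The ankyrins took different courses. Ank1 (ENSMUSG00000031543, chr8:22974844-23150497, plus strand) encodes ankyrin-R, the ankyrin of the red cell membrane that is also made in some neurons. Its level was 11.3, 4.56 and 1.01 CPM in the 3 samples at P0, from 59, 23 and 5 counts. It was 44.6, 13.3 and 9.25 CPM at P4 and 24.4, 23.8 and 33.8 CPM at P8. The samples at P0 and P4 were spread over several-fold ranges that overlapped, and from P8 on the replicates lay close together. Ank1 reached 61.3, 89.3 and 92.0 CPM at P14 and 102, 92.8 and 103 CPM at P21. Every sample at P14 and P21 lay above every earlier sample, and the mean at P21 was 17.6 times that at P0. That fold rests on few counts and on 1 sample: it was 35.6 without P0 replicate 1 and 12.5 without P0 replicate 3. Ank1 rose by 0.18 ± 0.032 log2 units per day (SE; edgeR adjusted p = 0.00025), the steepest slope among the 8 genes. Erythroid markers, given here because ankyrin-R is a red cell protein, summed to 806 ± 177 CPM at P0 and 182 ± 9.76 at P4. The sums were 433 ± 122 CPM at P8, 298 ± 135 at P14 and 661 ± 199 at P21. Of the 7 markers, 5 were tested and 0 were called by edgeR. Hbb-bs was the largest of them, with a mean of 377 CPM at P0 and 344 at P21. Slc4a1, the anion exchanger of the red cell membrane, had no count at P0, P14 or P21. The part of red cells in the Ank1 level was not tested. Of the exon bases of Ank1, 6.37% overlap the antisense gene Gm15816, and whether counting used strand is not given in the sources used here.

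Ank2 (ENSMUSG00000032826, chr3:126921612-127499350, minus strand) encodes ankyrin-B, the ankyrin of axon shafts. It stood at 415, 439.7 and 488 CPM at P0 and at 317, 292 and 335 CPM at P4, lower in every P4 sample. It then climbed to 547, 415 and 429 CPM at P8, 651, 685 and 716 CPM at P14, and 1045, 972 and 881 CPM at P21. Ank2 thus dipped and then climbed, and its samples did not overlap between any time point and the next. Its slope was 0.064 ± 0.0099 log2 units per day (adjusted p = 7.5e-05), and the mean at P21 was 2.16 times that at P0 and 3.07 times that at P4.

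Ank3 (ENSMUSG00000069601, chr10:69398773-70027438, plus strand) encodes ankyrin-G, the organiser of the axon initial segment and of nodes of Ranvier. It had 321, 223 and 123 CPM in the P0 samples, a range that covered every later sample. At P4 it had 261, 175 and 183 CPM, at P8 216, 188 and 224 CPM, at P14 171, 183 and 213 CPM, and at P21 252, 223 and 232 CPM. The P21 samples lay just above those of P14, and otherwise neighbouring time points overlapped. The highest mean was 1.25 times the lowest. The slope, 0.0024 ± 0.011 log2 units per day, was smaller than its error (adjusted p = 0.91), and its sign turned when samples were scaled to total counts (-0.015) and when P0 replicate 3, the lowest sample, was left out (-0.0061).

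Taken per exon length as RPKM, Ank2 made up most of the summed ankyrin RPKM at both ends of the course. The length counts every annotated exon base (13527 for Ank1, 35004 for Ank2 and 34838 for Ank3). Transcript forms in use and RNA integrity were not taken into account, so levels compared between genes are approximate. The Ank2 share of the summed RPKM of the 3 ankyrins was 66.2% ± 12.7 at P0 and 66.1% ± 2.02 at P21. The Ank3 share was 31.8% ± 11.1 at P0, 28.3% ± 2.04 at P8 and 16.2% ± 0.631 at P21. The Ank1 share was 2.0% ± 1.71 at P0, 9.56% ± 2.10 at P8 and 17.6% ± 1.43 at P21. Neither share overlapped between P0 and P21, and at P21 Ank1 and Ank3 stood at near-equal levels, 6.41 ± 0.511 and 5.91 ± 0.452 RPKM. Per coding length, the P21 shares were 69.6% (Ank2), 15.3% (Ank3) and 15.1% (Ank1). The ankyrin sum was 21.9 ± 2.35 RPKM at P0 and 36.4 ± 2.43 RPKM at P21, on total counts and not on TMM library sizes. These shares were chosen after values were seen and carry no test.

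Among the spectrins, the alpha chain and the general beta chain moved apart. Sptan1 (ENSMUSG00000057738, chr2:29965560-30031451, plus strand) encodes alpha-II spectrin, the alpha chain of neurons. Its level was 681, 751 and 688 CPM at P0 and 587, 837 and 694 CPM at P4, with full overlap. It was 762, 987 and 1139.5 CPM at P8, 1442, 1013 and 1066 CPM at P14, and 1385, 1852 and 1836 CPM at P21. All P14 and P21 samples lay above all P0 samples, while neighbouring time points overlapped at each step. Sptan1 rose by 0.063 ± 0.0085 log2 units per day (adjusted p = 2.1e-05), to 2.39 times the P0 mean.

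Sptbn1 (ENSMUSG00000020315, chr11:30099395-30268175, minus strand) encodes beta-II spectrin, the main partner of alpha-II spectrin outside the initial segment. It had 1012, 811 and 619.6 CPM at P0, 658, 671 and 567 CPM at P4, and 669, 623 and 604 CPM at P8. It had 401, 467 and 396 CPM at P14 and 615, 448 and 462 CPM at P21. The P14 samples lay below all earlier samples, and the lowest P0 sample and the highest P21 sample were close, at 619.6 and 615 CPM. Sptbn1 fell by 0.035 on the log2 scale per day (SE 0.0096, adjusted p = 0.011), and the P0 mean was 1.60 times the P21 mean. Without the P0 time point, where clusters were cut, its slope was -0.023 and the adjusted p was 0.18, so the call rests on P0.

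Sptbn4 (ENSMUSG00000011751, chr7:27356383-27447686, minus strand) encodes beta-IV spectrin, which binds ankyrin-G at the initial segment and at nodes. It was scarce, with 19.8, 4.96 and 14.2 CPM at P0 and 6.38, 6.47 and 8.74 CPM at P4. At P8 it had 20.97, 7.25 and 11.9 CPM, and at P14 7.91, 15.3 and 10.4 CPM. At P21 it had 25.4, 28.6 and 17.9 CPM. The P21 samples lay above all P14 samples but overlapped P0 and P8. The slope of 0.048 ± 0.026 log2 units per day did not pass the test (adjusted p = 0.19). Its counts were 25 to 135 per sample. Of its exon bases, 3.94% overlap other annotated genes (Gm44924 on the other strand and Gm20479 on the same strand).

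Per exon length, Sptbn4 stayed far below Sptbn1 at each age. The RPKM of Sptbn1 was 39.1 times that of Sptbn4 at P0 (23.9 to 89.4 over the 3 samples; geometric mean and range) and 11.7 times at P21 (8.56 to 14.1). The ranges at P0 and P21 did not overlap. As the log2 ratio of Sptbn4 to Sptbn1, the values were -5.29 ± 1.04 (SD, n = 3) and -3.55 ± 0.39, and with coding length in place of exon length, -6.25 and -4.51. This ratio carries no test.

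**Figure D2:**
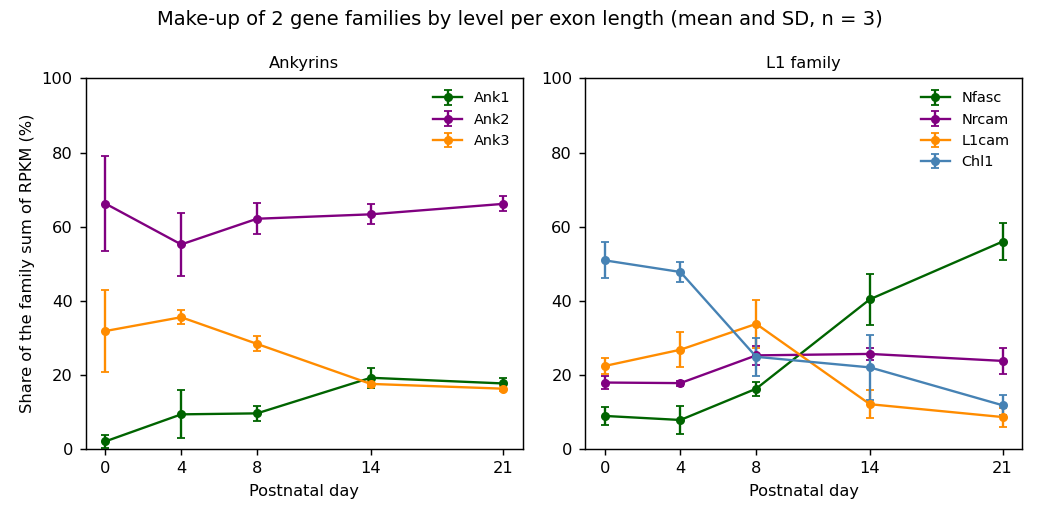
Share of each gene in the summed RPKM of its family (percent, 0 to 100) against postnatal day for ankyrins and the L1 family. Points are means and bars SD of 3 samples. Ank1 goes from 2.0% at P0 to 17.6% of the ankyrins at P21, and Nfasc goes from 8.87% at P0 to 55.9% of the L1 family at P21.

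The adhesion partners also differed. Nfasc (ENSMUSG00000026442, chr1:132564690-132741797, minus strand) encodes neurofascin, whose long neuronal form sits at the initial segment and whose glial form sits beside nodes; counts per gene do not separate the forms. Its level was 110.2, 141 and 73.4 CPM at P0 and 95.4, 34.3 and 76.8 CPM at P4. It was 116, 108 and 145 CPM at P8, 367, 218 and 301 CPM at P14, and 407, 318 and 444 CPM at P21. All P14 and P21 samples lay above all earlier samples. Nfasc rose by 0.11 ± 0.017 log2 units per day (adjusted p = 0.00011), to 3.6 times the P0 mean and 5.66 times the P4 mean. Oligodendrocyte markers rose over the same ages (5 of 5 called), with sums of 13.7 to 35.9 CPM at P0, 202 to 356 at P8 and 396 to 845 at P21, led by Cnp, and Mag and Mobp had no count at P0. Their part in the Nfasc level was not tested.

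Nrcam (ENSMUSG00000020598, chr12:44328885-44601964, plus strand) encodes NrCAM, which is recruited to the initial segment by ankyrin-G. It had 248, 204 and 166 CPM at P0, 136, 151 and 158 CPM at P4, and 172, 159 and 209 CPM at P8. It had 189, 145 and 195 CPM at P14 and 137, 160.3 and 166 CPM at P21. The P4 samples lay below those of both P0 and P8, and later time points overlapped. The slope of -0.012 ± 0.0096 log2 units per day did not pass the test (adjusted p = 0.41), but did when samples were scaled to total counts (-0.029, adjusted p = 0.031).

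Within the L1 family, Nfasc went from the least abundant to the most abundant gene per exon length. Its share of the family RPKM was 8.87% ± 2.49 at P0, 16.2% ± 1.87 at P8 and 55.9% ± 5.05 at P21. Chl1, close homolog of L1, held 50.9% ± 4.90 at P0 and 11.8% ± 2.76 at P21, and L1cam held 22.3% ± 2.14 and 8.57% ± 2.56. The Nrcam share stayed between 17.7% ± 0.683 at P4 and 25.6% ± 1.56 at P14. The RPKM ratio of Nfasc to Nrcam was 0.485 (0.418 to 0.652) at P0 and 2.37 (1.87 to 2.81) at P21. The family sum went from 95.7 ± 9.48 RPKM at P0 to 43.1 ± 7.56 RPKM at P21. RPKM is scaled to total counts, under which the median slope of all genes was -0.025, beside -0.0077 with TMM.

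Ordered by level per exon length at P0, Sptan1 (59.1 ± 3.52 RPKM) and Sptbn1 (52.0 ± 12.3) led and did not differ beyond their spread. Nrcam (17.2 ± 3.36) and Ank2 (14.3 ± 1.23) followed, then Nfasc (8.55 ± 2.70) and Ank3 (7.13 ± 3.15), each pair within its spread. Sptbn4 (1.51 ± 0.867) and Ank1 (0.464 ± 0.430) were lowest. At P21 Sptan1 (110.4 ± 17.0) stood alone, and Sptbn1 (25.4 ± 4.86), Nfasc (24.1 ± 4.56) and Ank2 (24.1 ± 1.95) lay together. Nrcam (10.1 ± 1.04) came next, followed by Ank1 and Ank3 at the near-equal levels above and by Sptbn4 (2.18 ± 0.454). Among 12853 protein-coding genes tested, Ank1 exceeded 9.90% of genes at P0 and 61.5% at P21, whereas Sptan1 exceeded 93.3% and 96.5%. Per coding length, a choice added after the data were seen, Sptbn1 (124.8 ± 29.4) and Sptan1 (104.8 ± 6.25) again led at P0, Nrcam (57.7 ± 11.3) and Ank2 (38.4 ± 3.31) were then apart by more than their SDs, and at P21 Nfasc (80.8 ± 15.3), Ank2 (64.7 ± 5.23) and Sptbn1 (61.0 ± 11.7) again lay together below Sptan1 (196 ± 30.1). The 8 genes are long, with 9563 to 35004 exon bases against a median of 4617.

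Over single steps, none of the 8 genes passed edgeR's test at an adjusted p under 0.05, against 1.97% of all genes from P0 to P4, 1.13% from P4 to P8, 2.67% from P8 to P14 and 0.329% from P14 to P21. At an unadjusted p under 0.05 there were 3, 3, 4 and 2 of the 8, against 14.9%, 11.8%, 13.4% and 7.02% of all genes. Other tests of the same counts called some of them. DESeq2 called Ank1 and Ank2 from P0 to P4 (background 6.4%), Ank2 from P4 to P8 (3.89%), Ank2, Nfasc and Sptbn1 from P8 to P14 (6.46%) and Ank2 from P14 to P21 (1.35%). limma-voom called Ank1, Ank2 and Nfasc from P8 to P14 (background 4.2%) and none at the other steps (1.98%, 2.17% and 0.371%).

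The step from P8 to P14 held the clearest values. Nfasc changed by 1.27 ± 0.33 log2 units (SE; edgeR adjusted p = 0.053, DESeq2 0.0064, limma-voom 0.018). Ank2 changed by 0.56 ± 0.15 (edgeR 0.060, DESeq2 0.0042, limma-voom 0.017), and by as much, 0.56 ± 0.15, from P4 to P8 (edgeR 0.097). From P8 to P14, Nfasc and Ank2 lay close to the threshold in edgeR. Their samples did not overlap, as in 25.5% of all genes at this step. Sptbn1 changed by -0.58 ± 0.19 (edgeR 0.12, DESeq2 0.047, limma-voom 0.071) and Ank1 by 1.56 ± 0.62 (edgeR 0.25, DESeq2 0.13, limma-voom 0.037). From P0 to P4 Ank1 changed by 1.97 ± 0.65 (edgeR adjusted p = 0.15), and by 2.94 (adjusted p = 0.047) without P0 replicate 1, the highest of the P0 samples.

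**Figure D3:**
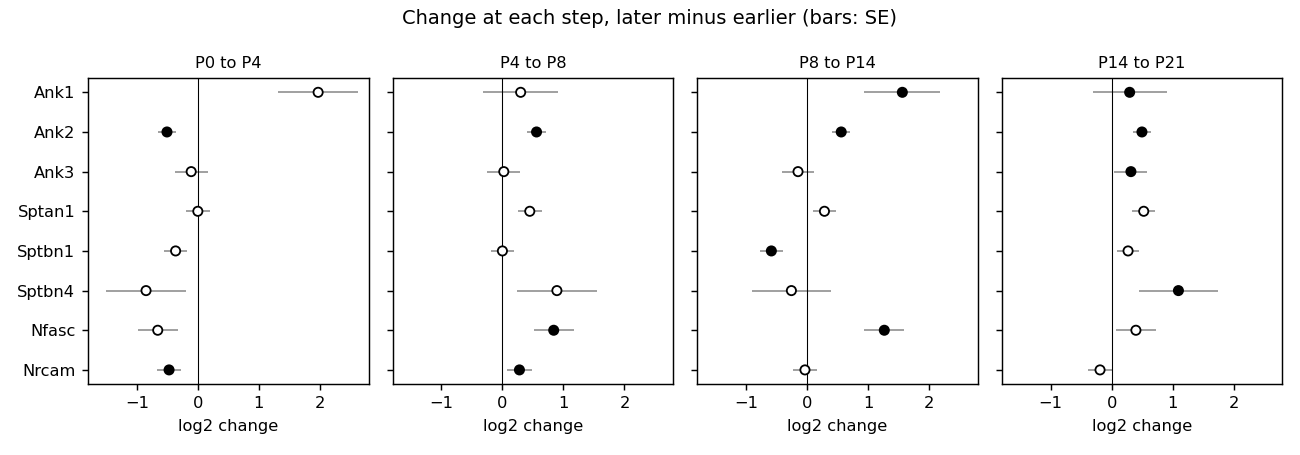
Change in log2 expression between neighbouring time points, later minus earlier, for the 8 genes from the edgeR factor fit, with bars of 1 SE. Filled points mark steps at which the CPM of the 3 earlier and 3 later samples did not overlap, as in 15.2%, 17.6%, 25.5% and 16.6% of all genes. Ank2 is filled at each step, below 0 from P0 to P4 and above 0 after.

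Other genes of the spectrin and actin skeleton were read from a list of 14, of which 12 were tested and the other 2 had no counts. By trend, 4 rose and 0 fell (0 at an unadjusted p under 0.05, and 0 by DESeq2 or limma-voom), beside 12.1% and 14.1% of all genes tested. The median slope was 0.035, beside -0.0077 for all genes. Add3, Epb41 and Epb41l3 were among the 4 that rose. Add3, gamma-adducin, which caps actin filaments at spectrin junctions, rose from 34.0 ± 26.6 CPM at P0 to 242 ± 44.3 at P21 (0.14 ± 0.029 log2 units per day, adjusted p = 0.0012). Epb41, protein 4.1R, which ties spectrin and actin to the membrane, went from 75.0 ± 18.7 to 271 ± 106 CPM (0.11 ± 0.018, adjusted p = 0.00012). Epb41l3, protein 4.1B, had a slope of 0.039 ± 0.011 (adjusted p = 0.012), and its call was lost with total counts and without the P0 time point.

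Of 27 genes of the initial segment and node, 9 rose, 5 fell and 13 passed no test, beside 12.1% rising and 14.1% falling among all genes tested. The median slope was 0.0072, beside -0.0077 for all genes. Scn4b, a sodium channel beta subunit tied to resurgent current, was at 0 in all P4 samples, with at most 0.192 CPM at P0, and reached 147 ± 14.6 CPM at P21 (0.51 ± 0.063 log2 units per day, adjusted p = 7.3e-06). Scn2b went from 49.4 ± 6.98 to 1172 ± 77.8 CPM (0.22 ± 0.018, adjusted p = 5.3e-08). Kcna1, the Kv1.1 channel, went from 56.4 ± 31.5 to 769 ± 94.2 CPM (0.19 ± 0.026, adjusted p = 2.4e-05). Others that rose were Scn1a, Scn8a, Mapre3, Fgf12 and Kcna2, and the Kcna2 call held in 16 of 24 alternatives.

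Of the 5 genes that fell, Chl1 fell from 533 ± 17.4 CPM at P0 to 72.9 ± 28.9 CPM at P21 (slope -0.14 ± 0.014 log2 units per day, adjusted p = 1.2e-06). L1cam, the founding L1 family member, fell from 142 ± 28.1 to 31.0 ± 10.1 CPM (-0.12 ± 0.018, adjusted p = 6.2e-05). Mapre1, the microtubule end protein EB1, fell from 385 ± 47.0 to 82.5 ± 25.3 CPM (-0.12 ± 0.013, adjusted p = 1.8e-06), while Mapre3, EB3, rose (0.13 ± 0.013, adjusted p = 9.2e-07). Fgf13, which binds sodium channels, had a slope of -0.12 ± 0.036 (adjusted p = 0.015), and its call was lost with limma-voom and with log2(day + 1). Trim46, which bundles microtubules in the proximal axon and is named here after its values were seen, fell from 86.4 ± 29.4 to 18.9 ± 7.01 CPM (-0.099 ± 0.017, adjusted p = 0.00021).

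The genes whose log2 CPM followed each member most closely were read over the 15 samples among 10698 protein-coding candidates, and since time points and depth are shared by all genes the correlations are descriptions only. Ank1 was followed by Clec16a and Zfp346 (r = 0.97 for both), Ank2 by Gas1 (0.97) and Slc25a23 (0.94), Sptan1 by Ogdh (0.95) and Ncoa1 (0.94), and Nfasc by M6pr (0.95) and Ece1 (0.93). Sptbn1 was followed by Pik3c2b and Zfp329 (0.91 for both), both of which fell with age. The genes with no trend had lower values: Ank3 with Hemk1 (0.86) and Alkbh4 (0.84), Sptbn4 with Ly6a (0.84) and Ccdc136 (0.82), and Nrcam with Dip2c (0.82) and Mfsd2a (0.80). Among the 8 genes, r was highest between Ank2 and Nfasc (0.90) and lowest between Sptan1 and Sptbn1 (-0.67).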

How the data were processed

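RNA of laser-captured Purkinje cells was amplified with the SMARTer Ultra Low kit and sequenced in pairs by the authors. Per the paper and the labels, they trimmed reads (cutadapt 1.2.1), aligned them with GSNAP to GRCm38 and kept unique alignments. Those fully inside annotated features were counted with HTSeq 0.5.3p9. These raw counts per gene are what was deposited. The annotation release and the strand setting are not given in the sources used here. Reads assigned to no feature (16.7 to 29.8% per sample) and ambiguous reads (1.16 to 1.57%) stayed out of library sizes.

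Groups and replicate numbers came from the labels. Counts were fitted in edgeR 4.0.16 (R 4.3.3) by quasi-likelihood with TMM scaling and filterByExpr by time point, over 14293 genes with Benjamini-Hochberg adjustment, with day as a number, time point as a factor, and 4 step contrasts from the factor fit. DESeq2 1.42.0 and limma 3.58.1 (voom) were alternatives. The biological coefficient of variation was 0.757 in the fit with day as a number, which also takes in departures from a straight course. The fits were tested on simulated data. CPM uses TMM library sizes. RPKM uses summed GENCODE M21 exon lengths (GRCm38) and total counts. M21 held 36639 of the 38561 gene IDs. Figures were drawn with matplotlib 3.10.9.

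Named genes are the 8 members, L1cam and Chl1, up to 4 rising and 4 falling genes per list with the largest called slopes and a peak mean of 10 CPM or more, the 2 genes closest to each member in course, and marker genes beside a result. Some genes that this rule takes are not reported here. The members and lists were chosen with earlier results of these data known. Alternatives were other scalings, no filter, other tests, a replicate block, an exon length offset, log2(day + 1), leaving out P0 and leaving out each sample.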

Additional observations from a re-analysis of the deposited data

How the results depend on the processing

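The rises of Ank1, Ank2, Sptan1 and Nfasc kept their direction and an adjusted p under 0.05 in each alternative run, including each of the 15 fits without 1 sample. The number of falling genes among the 8 was 2 with total counts in place of TMM, where Nrcam was added, and 0 without the P0 time point. Per step, DESeq2 called 2 genes from P0 to P4, 1 from P4 to P8, 3 from P8 to P14 and 1 from P14 to P21, where edgeR called 0. From P8 to P14, 1 was called with total counts (Sptbn1), 1 with no filter (Nfasc), 3 with limma-voom and 2 with the exon length offset (Nfasc and Ank2). Leaving out 1 sample gave 0 to 1 called genes from P0 to P4 (Ank1 without P0 replicate 1) and 0 to 1 from P8 to P14 (Nfasc without P0 replicate 2 or 3 or P4 replicate 1 or 2, and Ank2 without P8 replicate 1). With total counts, 2 genes of the spectrin skeleton list fell (Add1 and Tmod2). The cause was not tested for any of these.

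The Ank3 slope changed sign with total counts (-0.015), with log2(day + 1) (-0.0075) and without P0 replicate 3, P4 replicate 3 or P21 replicate 1 (-6.5e-05 to -0.0061, within a range of -0.0061 to 0.012 over the fits without 1 sample), and the Nrcam slope without the P0 time point (0.0014). Replicate numbers are shared by the time points, but deviations from the time point means were unrelated within a number (mean r = -0.0033, 0 of 30 pairs over 0.1). This correlation over all genes cannot exclude a shared origin that acts on few genes. With the number as a replicate block, 4 of the 8 genes rose, 1 fell and none passed a step test, and 3 samples correlated best with their own number.

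Counts were lowest for Ank1 at P0 (5 to 59) and for Sptbn4 (25 to 135). With 3 replicates per time point, p-values set a slope or contrast against a spread estimated from these samples only, in part shared over genes. No result met the rules for unusual samples or for group differences that would call for a closer look. Still, at P0 Ank1, Ank3, Sptbn1 and Nrcam each fell from replicate 1 over 2 to 3. Ank2 rose in that order, and Sptan1, Sptbn4 and Nfasc followed neither order. The share of reads with no feature at P0 was 29.8%, 27.5% and 24.1% in the same order. The cause was not tested.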
